A study of Mus musculus with 7 samples.

Results

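Metallothioneins and the genes that move zinc across hepatocyte membranes were described in livers of mice with or without hepatocyte p53, 8 h after a toxic dose of carbon tetrachloride (CCl4). The set was 7 genes picked by name, out of 14851 genes with values: the metallothioneins Mt1 and Mt2, their metal-sensing activator Mtf1, the exporters Slc30a1 and Slc30a10, and the importers Slc39a4 and Slc39a14. The RNA-seq data came from 7 livers of male C57BL/6J mice of about 70 days, of which 4 had the genotype Albumin-Cre; p53 FL/FL, here called FL, while the remaining 3 were Albumin-Cre; p53 WT/WT, here called WT. Every mouse had received 1 intraperitoneal injection of CCl4, at 1 mL/kg of a 20% v/v solution in corn oil, so that both genotypes were treated and no untreated liver was analysed here. Both genotypes carried the Cre, which is driven by the albumin promoter. Which of the other cells of an FL liver kept their p53 was not tested. Some mice of either genotype also carried a Rosa26 LSL-tdRFP reporter allele, but the sources used here do not say which. In the source names, all WT livers shared a prefix that no FL liver had. What the prefix stands for is not given, no batch is named, and whatever it marks cannot be told apart from genotype.

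Metallothioneins are small, cysteine-rich proteins that hold zinc and copper, and the liver makes large amounts of them after injury, metal load, glucocorticoids or acute-phase cytokines. MTF1 is a zinc-finger transcription factor that binds metal response elements in DNA when free zinc rises, and it switches on Mt1, Mt2 and the plasma-membrane exporter gene Slc30a1. Members of the SLC30 family (ZnT proteins) move zinc out of the cytosol, whereas those of the SLC39 family (ZIP proteins) move it in. SLC39A14 is the ZIP that hepatocytes raise in the acute phase, SLC39A4 is best known for zinc uptake in the intestine, and SLC30A10 is chiefly an exporter of manganese.

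Upstream sequences are shown for the metallothioneins and the exporters, because metal response elements are the sites that MTF1 binds and these were the windows that held matches to them. Windows of 250 bases before the RefSeq start (GRCm38.p6) were at hand for 5 of the 7 genes, and matches to the metal response core (TGCACNC or TGCGCNC, on either strand) are in capitals.
Mt1, chr8:94178839-94179088, + strand: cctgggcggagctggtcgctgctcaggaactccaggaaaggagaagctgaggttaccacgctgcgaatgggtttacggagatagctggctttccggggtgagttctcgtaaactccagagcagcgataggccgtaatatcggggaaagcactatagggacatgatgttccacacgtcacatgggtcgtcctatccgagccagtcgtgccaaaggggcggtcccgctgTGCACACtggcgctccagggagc
Mt2, chr8:94172368-94172617, + strand: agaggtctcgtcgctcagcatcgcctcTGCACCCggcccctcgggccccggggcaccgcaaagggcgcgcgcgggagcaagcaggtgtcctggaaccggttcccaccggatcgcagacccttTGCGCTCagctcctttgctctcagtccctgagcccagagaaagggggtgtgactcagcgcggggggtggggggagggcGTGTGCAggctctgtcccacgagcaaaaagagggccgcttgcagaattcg
Slc30a1, chr1:191906531-191906780, + strand: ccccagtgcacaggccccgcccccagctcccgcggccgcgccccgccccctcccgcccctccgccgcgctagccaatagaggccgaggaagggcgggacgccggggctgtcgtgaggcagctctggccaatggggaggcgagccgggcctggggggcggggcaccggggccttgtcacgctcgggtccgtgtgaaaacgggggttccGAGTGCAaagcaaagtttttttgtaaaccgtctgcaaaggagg
Slc30a10, chr1:185454598-185454847, + strand: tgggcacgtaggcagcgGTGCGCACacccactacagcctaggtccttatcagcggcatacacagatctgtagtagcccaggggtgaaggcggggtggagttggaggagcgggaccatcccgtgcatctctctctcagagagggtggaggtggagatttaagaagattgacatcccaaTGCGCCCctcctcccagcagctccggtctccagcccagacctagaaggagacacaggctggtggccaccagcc
A core match stood in 21.4% of 32851 such windows over all genes, and 1.26% held at least 3 matches. The windows of Mt2 and Slc30a10 held 3 matches each, those of Mt1 and Slc30a1 held 1 each, and that of Mtf1 held 0. A pair of the Slc30a10 matches lie on opposite strands of the same bases and overlap. Mt2 also had an antioxidant response element core (TGACNNNGC) at 79 to 71 bases before the start, and Slc30a1 had another at 82 to 74 bases before it, a motif present in 10.2% of windows. No match to a STAT site (TTCNNNGAA, in 7.02% of windows) or to a p53 half-site (in 7.13%) was found in any of the 5 windows. A match is a run of letters only, and its absence concerns only these 250 bases.

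The annotated start of Mt1 needs care. Within the first 250 bases of its principal GENCODE transcript, 4 further core matches were found, at bases 10 to 16, 28 to 34, 92 to 98 and 106 to 112, and the letters TATAAA followed at base 129. A count of at least 4 was met in 0.257% of 21780 coding genes. Mt2 had 3 such matches and TATAAA at base 90, Slc30a1 and Slc30a10 had 1 match each, and Mtf1 had 0, against 24.7% of coding genes with any. The matches of the metallothionein pair therefore lie on both sides of the annotated starts.

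Before the genotypes were compared, the deleted gene and the libraries were checked. Trp53, the targeted gene, lay between 110 and 217 normalised counts across FL and between 688 and 876 across WT (log2 fold change -2.47, adjusted p = 0.0447, limma). Its target Eda2r had 5 to 8 in FL and 58 to 137 in WT livers (log2 fold change -3.70, adjusted p = 0.0447, limma). These were the only genes called at an adjusted p under 0.05, 0.0159% of 12545 tested, and 401 genes (3.2%) had an unadjusted limma p under 0.05. The authors' DESeq2 analysis of these livers called more genes, Cyp2a5 among them, than limma did on the rounded values. Libraries summed to 14123213 to 16554427 normalised counts. FL replicate 3 and WT replicate 2 stood apart from the other 5 livers on the first principal component, which held 66.7% of the variance, at 29.2 and 82 against -25.6 to -19.1. Both livers had the highest summed proliferation markers of their genotype, 298 against 82 to 112 in the other FL livers and 1142 against 104 and 126 in the other WT livers. WT replicate 2 also had the highest summed macrophage markers, 8231 against 3502 to 5388 in the other livers. Results are therefore given with and without this pair of livers, and what sets them apart was not tested. The livers were hepatocyte tissue by their markers, whose sum of 6 genes was 1154139 to 1747910, while 4 neutrophil genes summed to 17 to 63. Most of the hepatocyte sum was Alb, at 956556 to 1511638. Bulk values cannot tell fewer cells of a type from less RNA per cell.

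Levels were first compared between genes, per kilobase of the principal transcript, since transcripts differ in length. The metallothioneins were the most abundant by far. Mt1 averaged 35300 normalised counts per kb over the 7 livers and ranked 23 among the 12545 tested genes, and Mt2 averaged 28440 and ranked 29. Mt1 exceeded Mt2 in 7 of 7 livers and Mt2 exceeded Slc39a14 in 7 of 7, by at least 7.29 times. Slc39a14 followed with 1765 per kb and Slc39a4 with 549 per kb, and this order too held in 7 of 7 livers. Slc30a1 (135.5 per kb), Slc30a10 (120.8 per kb) and Mtf1 (83.2 per kb) made up the low end. Their order was not fixed, because Slc30a1 lay above Slc30a10 in only 4 of 7 livers and Slc30a10 above Mtf1 in 5 of 7.

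Mt1, the more abundant metallothionein (GRCm38 chr8:94179082-94180327, + strand), was counted 22155, 25060, 9892 and 38969 times after normalisation for FL replicates 1 to 4. The WT replicates 1 to 3 had 16709, 7779 and 15092. FL replicates 1, 2 and 4 were higher than every WT liver, FL replicate 3 was below WT replicates 1 and 3, and WT replicate 2 was the lowest of all, so the groups overlapped. The means were 24020 ± 11940 (SD, n = 4) in FL and 13190 ± 4758 (SD, n = 3) in WT. The log2 fold change of 0.78 (SE 0.46, 95% interval -0.29 to 1.85) did not pass the test (adjusted p = 0.999, limma), and the exact two-sided permutation p was 0.286, where 35 divisions of the livers allow no p below 0.029. The fold change was 0.44 without WT replicate 2, 0.50 without FL replicate 4 and 1.15 without FL replicate 3.

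Mt2, which lies 5.51 kb upstream of Mt1 on the same strand (chr8:94172664-94173568), stood at 17586, 19634, 4979 and 30457 normalised counts for FL replicates 1 to 4. The WT values were 13297, 3444 and 12338. The order of the livers was that of Mt1, with FL replicate 4 on top and WT replicate 2 at the bottom, but the span was wider, 8.84 times from lowest to highest against 5.01 times for Mt1. The means were 18160 ± 10450 (SD, n = 4) and 9693 ± 5433 (SD, n = 3), a log2 fold change of 0.87 (SE 0.68, interval -0.70 to 2.45) that did not pass either (adjusted p = 0.999, limma, and exact permutation p = 0.371). It was 0.24 without WT replicate 2, 0.54 without FL replicate 4 and 1.41 without FL replicate 3. Of the 36-base stretches of Mt2 transcripts, 54.6% also lie in Gm45774, an annotated antisense gene that has no values among the deposited genes. The strand setting of the authors' counting is not given in the sources used here. The Mt2 level is therefore uncertain, by an amount that was not tested. Mt1 and Mt2 transcripts share 0 such stretches, so reads of their full length are told apart.

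**Figure D1:**
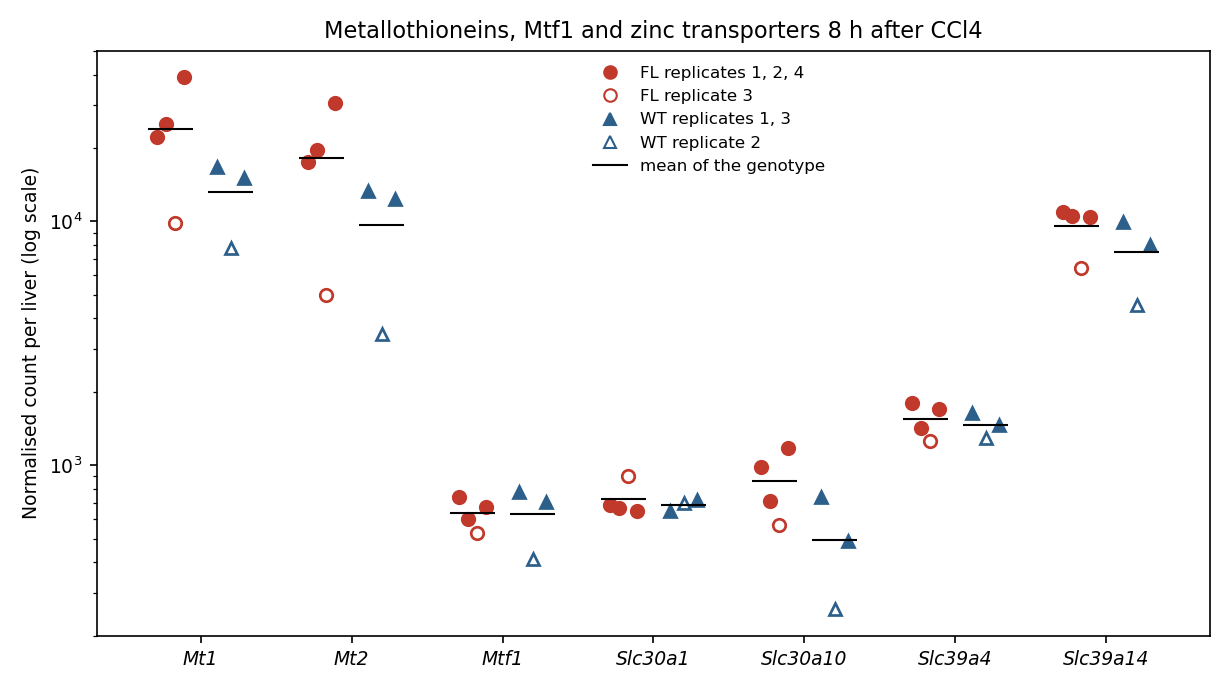
Normalised counts of the 7 genes in each liver on a log axis, with FL livers as circles, WT livers as triangles, FL replicate 3 and WT replicate 2 as open symbols, and horizontal lines at the mean of each genotype. The open symbols are the lowest of their genotype for every gene but Slc30a1, and the genotypes overlap for all 7 genes.

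Summed, the metallothioneins gave 39741, 44694, 14871 and 69426 normalised counts for FL, against 30006, 11223 and 27430 for WT. That was 0.0938% to 0.419% of all normalised counts in FL and 0.0795% to 0.195% in WT. The sum differed by 0.81 on the log2 scale, with FL higher (exact permutation p = 0.286). Single livers moved that value widely, to 0.36 without WT replicate 2, 0.51 without FL replicate 4 and 1.25 without FL replicate 3. The balance of the pair was steadier than its level: Mt1 was 1.26, 1.28 and 1.28 times Mt2 in FL replicates 1, 2 and 4, and 1.26 and 1.22 times in WT replicates 1 and 3. In FL replicate 3 the ratio was 1.99 and in WT replicate 2 it was 2.26, so that where both transcripts were low, Mt2 was the lower still. Between the genotypes the log2 ratio differed by -0.09 (exact permutation p = 0.714).

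**Figure D2:**
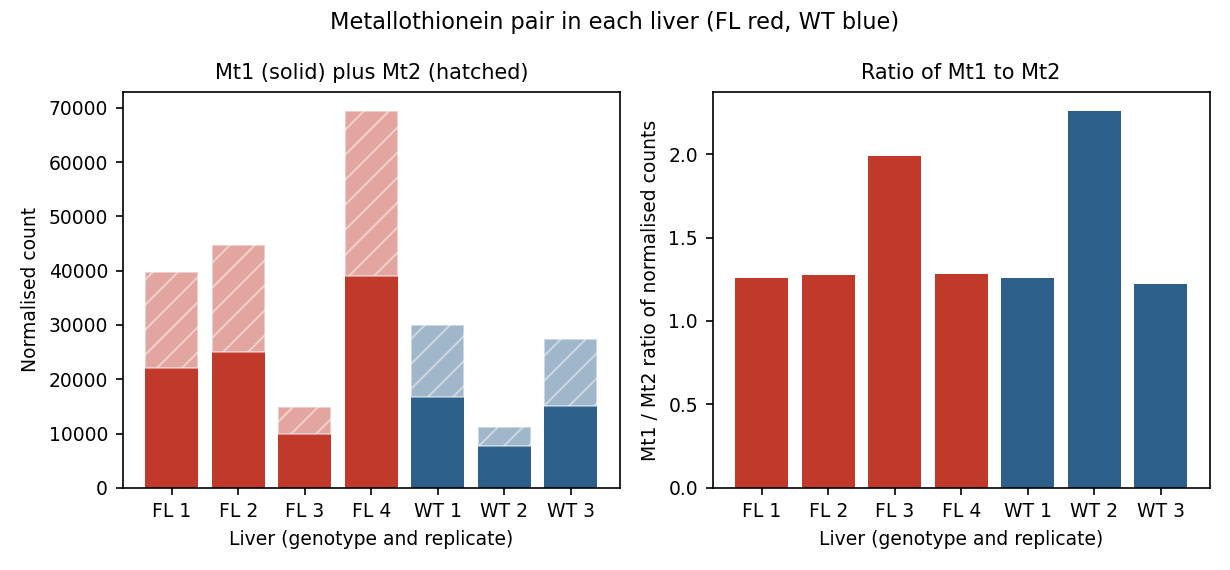
Left, stacked bars of Mt1 and Mt2 normalised counts per liver; right, the ratio of Mt1 to Mt2 (FL red, WT blue, both axes from 0). The sum is lowest in FL 3 and WT 2, which are also the livers where the ratio reaches 1.99 and 2.26 in place of 1.22 to 1.28.

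Mtf1 (chr4:124802104-124849800, + strand), the metal-sensing activator, had 743, 600, 526 and 677 normalised counts in FL, against 777, 411 and 709 in WT. The genotypes spanned much the same levels, with means of 636.5 ± 94.0 (SD, n = 4) and 632.3 ± 194.7 (SD, n = 3). Its log2 fold change was 0.05 (SE 0.23, interval -0.49 to 0.59, adjusted p = 0.999, limma). The value was -0.23 without WT replicate 2. At its end Mtf1 overlaps 1110065P20Rik on the opposite strand, which shares 7.71% of its 36-base stretches and had 197 to 263 normalised counts.

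Among the exporters, Slc30a1 (chr1:191906767-191913247, + strand), a known MTF1 target, had 688, 666, 905 and 647 normalised counts in FL, against 651, 700 and 717 in WT. It was the steadiest of the 7 genes, 1.40 times from lowest to highest, and its top value was in FL replicate 3, the FL liver where the metallothioneins were lowest. The log2 fold change was 0.06 (SE 0.14, interval -0.26 to 0.38, adjusted p = 0.999, limma), and it was -0.05 without FL replicate 3. Its antisense neighbour 1700034H15Rik, which shares 8.28% of its stretches, had only 3 to 14 normalised counts.

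Slc30a10 (chr1:185454848-185468762, + strand), the manganese exporter, had 983, 715, 571 and 1180 normalised counts in FL, against 740, 257 and 489 in WT. FL replicates 1 and 4 were above every WT liver and WT replicate 2 was far below the rest, while FL replicates 2 and 3 lay under WT replicate 1. The means were 862 ± 272 (SD, n = 4) and 495 ± 242 (SD, n = 3). This was the gene nearest to the unadjusted threshold, with a log2 fold change of 0.87 (SE 0.38, interval -0.0011 to 1.74). Its limma p was 0.0502 unadjusted and 0.999 adjusted, and its exact permutation p was 0.143. Without WT replicate 2 the fold change was 0.46. Gm2061, a noncoding gene on the opposite strand that overlaps the start of Slc30a10 and shares 8.59% of its 36-base stretches, had 5 to 51 normalised counts.

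Among the importers, Slc39a14 (chr14:70303469-70351425, - strand), the acute-phase ZIP, had 10926, 10524, 6425 and 10470 normalised counts in FL, against 9978, 4552 and 7987 in WT. FL replicates 1, 2 and 4 were close together and above every WT liver, and FL replicate 3 was below WT replicates 1 and 3. The means were 9586 ± 2117 (SD, n = 4) and 7506 ± 2745 (SD, n = 3), a log2 fold change of 0.39 (SE 0.30, interval -0.29 to 1.08, adjusted p = 0.999, limma). Without WT replicate 2 it was 0.07, and without WT replicate 1 it was 0.64.

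Slc39a4 (chr15:76612383-76617384, - strand), the importer best known from the intestine, had 1805, 1415, 1261 and 1695 normalised counts in FL, against 1644, 1288 and 1465 in WT. The ranges nearly coincided, and the log2 fold change was 0.07 (SE 0.15, interval -0.29 to 0.42, adjusted p = 0.999, limma). The 4 intestinal marker genes that have values summed to 507 to 2065 and did not move together. Tff3 reached 1083 in FL replicate 3 against 8 to 185 elsewhere, and Fabp2 ran from 642 to 976 in FL and from 472 to 1091 in WT. Vil1 (3 to 6 in FL, 7 to 29 in WT) and Cdx2 (0 in every FL liver, 2 to 8 in WT) were lower in FL. Their part in the Slc39a4 values was not tested.

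Over the set, 0 of the 7 genes were called, against 0.0159% of all genes tested, and 0 had an unadjusted limma p under 0.05, against 3.2%. In 0 of 7 were all FL livers above or below all WT livers, where 2.77% and 1.98% of all genes were. All 7 log2 fold changes were above 0 as measured, while 48.4% of all genes tested were below 0. The median of the 7 was 0.39, against 0.007 over all genes. Scaling the livers to equal totals moved the median of all genes to -0.10, and under that scaling Mtf1, Slc30a1 and Slc39a4 turned slightly negative.

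A difference that recurred across the set was between single livers, while no difference between the genotypes was called. In 6 of the 7 genes, all but Slc30a1, FL replicate 3 was the lowest FL liver and WT replicate 2 the lowest WT liver, which was so in 28.8% of all genes. The reverse, both livers highest, held for 0 members and 28.6% of genes. Mt2 was 4.40 times lower in FL replicate 3 than the other FL livers, as a geometric mean, and 3.72 times lower in WT replicate 2 than the other WT livers. Only 33 of the other tested genes were at least as low as that in both. For Mt1 the folds were 2.82 and 2.04, with 87 other genes as low. Slc30a10 was 1.64 and 2.34 times lower, Slc39a14 1.66 and 1.96 times, and Slc39a4 1.29 and 1.21 times. Mtf1 differed by -0.35 and -0.85 on the log2 scale. Slc30a1 stood 0.44 log2 units higher in FL replicate 3 and 0.03 higher in WT replicate 2. Cell type markers also differed in these livers, though not all in the same direction. Of 6 macrophage genes, 5 were highest in both livers, with sums of 5388 in FL replicate 3 against 3559 to 4332 in the other FL livers, and 8231 in WT replicate 2 against 3502 and 3830. The stellate sum was 3006 in WT replicate 2 against 1396 to 1738 elsewhere. The bile duct sum was 603 in FL replicate 3 against 1255 to 1482 in the other FL livers. In WT replicate 2 it was 1206, against 884 and 1207 in the other WT livers. The hepatocyte sum was the highest of its genotype in both livers. It was 1747910 in FL replicate 3 against 1345471 to 1655576, and 1401457 in WT replicate 2 against 1154139 and 1232269. Alb alone made up most of it, with 1511638 in FL replicate 3 and 1200274 in WT replicate 2, so the sum mainly follows 1 gene. Of the 6 hepatocyte genes, 2 were highest in both livers and 2 lowest in both. The part of these and of the proliferation markers in the low metallothionein values was not tested.

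Without FL replicate 3 and WT replicate 2, 3 livers were set against 2. All 3 FL livers were then above both WT livers for 3 of the 7 genes, Mt1, Mt2 and Slc39a14, against 12.7% of all genes, and for 0 were they below, against 14.6%. The log2 fold change of Mt1 was 0.81 (SE 0.20) and that of Mt2 0.77 (SE 0.20), close to the values in all 7 livers but with smaller errors, whereas omitting WT replicate 2 alone gave 0.44 and 0.24. Slc30a10 stood at 0.64 (SE 0.22) and Slc39a14 at 0.25 (SE 0.11). These 4 genes had an unadjusted limma p under 0.05, namely 0.00313 for Mt1, 0.00347 for Mt2, 0.0156 for Slc30a10 and 0.0394 for Slc39a14, against 9.74% of the 12325 genes tested there. After adjustment 0 of the 7 passed (adjusted p of 0.263, 0.274, 0.379 and 0.487, limma), while 0.0487% of genes did. The exact permutation test cannot go below 0.1 in so few livers. In these 5 livers the summed hepatocyte markers, mostly Alb, were 1345471 to 1655576 in FL and 1154139 to 1232269 in WT. For 5 of those 6 markers every FL liver was above both WT livers. The part of these markers in the metallothionein values was not tested. Both omitted livers were singled out from the same data, so this comparison adds no independent evidence. Mtf1 (-0.15), Slc30a1 (-0.04) and Slc39a4 (0.07) stayed near 0.

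**Figure D3:**
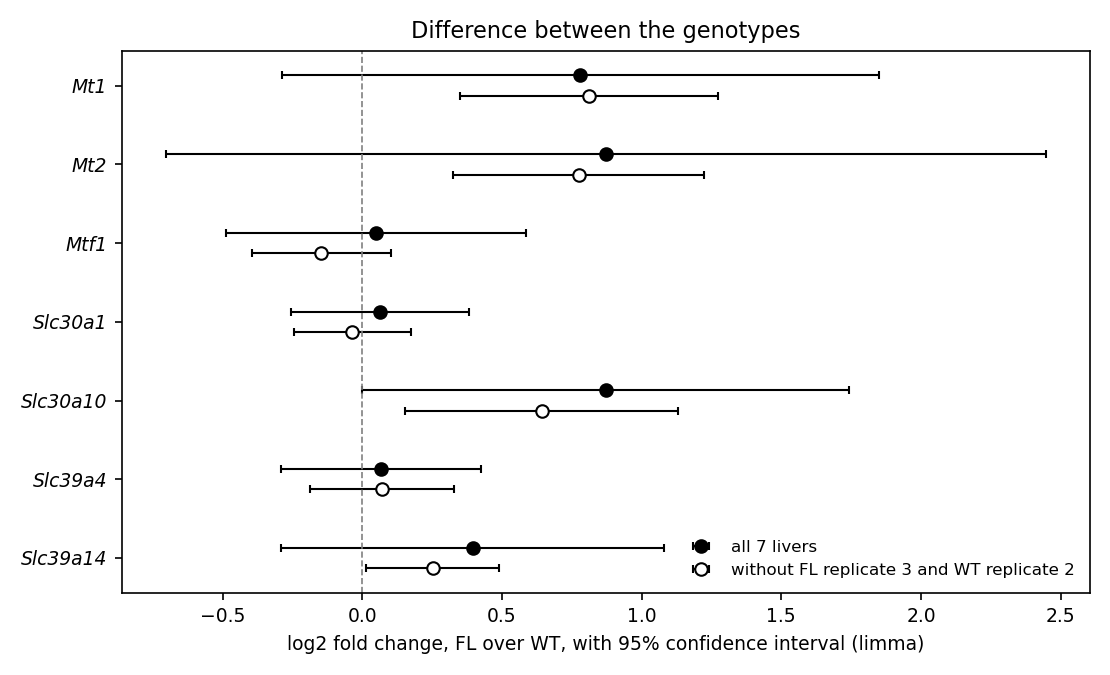
Log2 fold changes of FL over WT with 95% confidence intervals from limma, for all 7 livers (filled) and without FL replicate 3 and WT replicate 2 (open). Intervals from all 7 livers cover 0 for each gene; the open intervals of Mt1, Mt2, Slc30a10 and Slc39a14 lie above 0, before any adjustment for the number of genes.

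For the rest of the SLC30, SLC39 and metallothionein genes, no difference between the genotypes passed the test. Of 21 such genes with values, 17 were tested and 0 were called. An unadjusted limma p under 0.05 was found for 0, against 3.2% of all genes, and groups that did not overlap for 0, against 2.77% with FL above and 1.98% with FL below, so that 0 of 17 is near the background. As measured, 7 were higher and 10 lower in FL, with a median log2 fold change of -0.01. Slc30a5, a ZnT of the secretory pathway, and Slc39a1, a plasma-membrane ZIP, were the most abundant of them per kb of transcript, at 451.2 and 582.1. Slc30a5 had 1750, 1584, 1172 and 1438 normalised counts in FL, against 1771, 792 and 1533 in WT. Slc39a1 had 1278 to 1565 in FL and 1261 to 1395 in WT. The log2 fold change of Slc30a5, 0.19, was the highest. Slc39a5 had the lowest, -0.90, from 31, 14, 35 and 23 normalised counts in FL, against 30, 86 and 38 in WT, where WT replicate 2 was the highest of the 7 livers. The least abundant one tested, per kb as well, was Slc30a3, with 19 to 29 in FL and 16 to 28 in WT. Mt3 never exceeded 4 normalised counts, nor Slc30a2 8, Slc30a8 9 or Slc39a12 3, and these 4 genes were not tested.

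Liver by liver, the wider family split. FL replicate 3 and WT replicate 2 were the lowest of their genotype in 9 of the 17 genes and the highest in 6, against 28.8% and 28.6% of all genes. Slc30a4, another intracellular ZnT, had 678, 622, 395 and 532 normalised counts in FL and 871, 281 and 929 in WT, and was low where the metallothioneins were low. Slc39a11, in contrast, had 336, 367, 473 and 364 in FL and 338, 714 and 442 in WT, and was highest in the livers where they were lowest. Without that pair of livers, 4 genes of the 17 had every FL liver below both WT livers (Slc30a4, Slc30a7, Slc39a6 and Slc39a9), against 14.6% of all genes, and 0 had every FL liver above, against 12.7%.

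**Figure D4:**
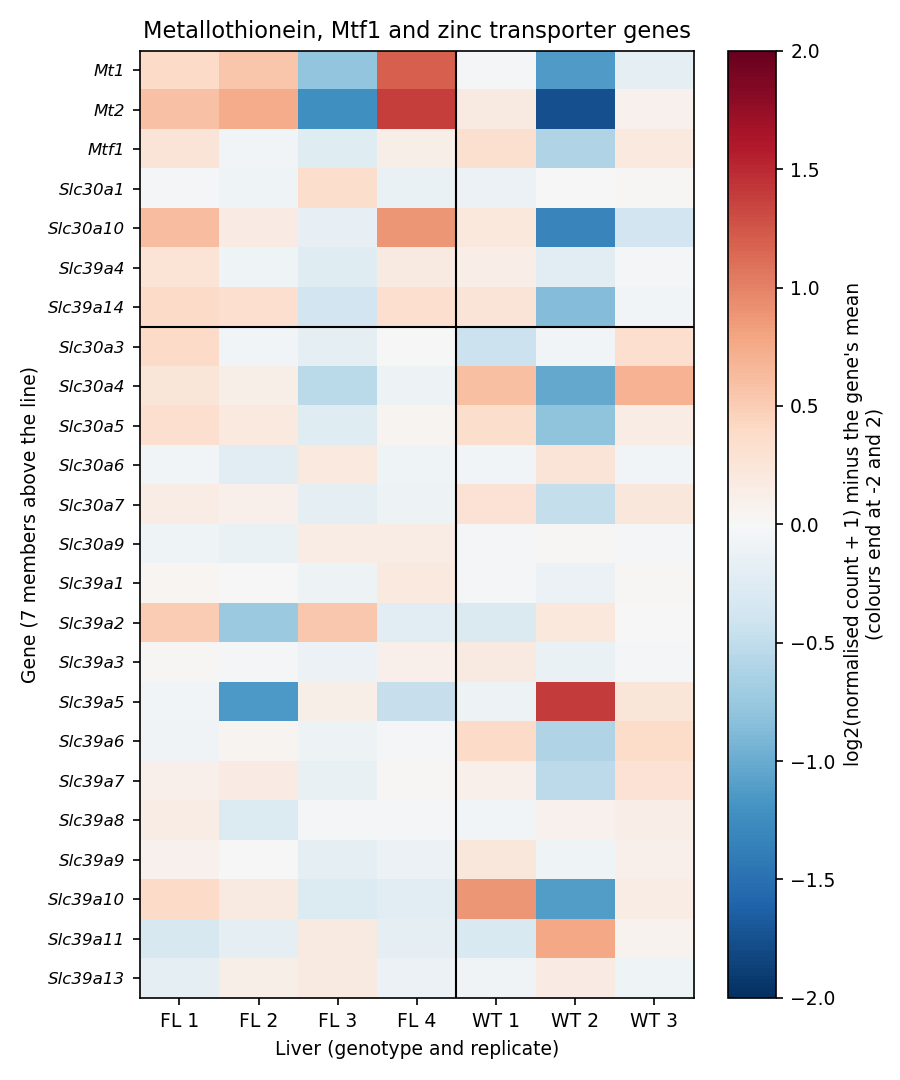
Deviation of log2(normalised count + 1) from each gene's mean over the 7 livers, for the 7 genes of the set above the line and the 17 other tested SLC30 and SLC39 genes below it. Blue columns at FL 3 and WT 2 mark the lower values of the metallothioneins, -1.23 and -1.76 for Mt2, and Slc39a5 and Slc39a11 are red at WT 2.

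Genes tied to the same regulators were read from lists chosen with earlier results known, so their counts are descriptions, and no gene of them passed after adjustment (adjusted p = 0.999 for each, limma). Over all genes, 3.2% had an unadjusted limma p under 0.05, 2.77% had all FL livers above all WT livers and 1.98% had them below. In 48.4% of all genes the log2 fold change was below 0. The counts of these short lists are to be read against those shares. Scaling to equal totals moved the median of all genes to -0.10, so genes of these lists with values near 0 could change direction. Among 8 genes tied to MTF1, 0 were called, 1 had an unadjusted limma p under 0.05 (3.2% of all genes), and 6 were higher and 2 lower in FL (median 0.08). The former was Cebpa, a hepatocyte transcription factor, with 6160 to 7169 normalised counts in FL and 4668 to 5954 in WT livers (log2 fold change 0.31, limma p = 0.0376 unadjusted, exact permutation p = 0.057). All 10 genes of the IL-6 and STAT3 response, the route by which the acute phase raises Slc39a14, were higher in FL as measured. Their log2 fold changes ran from only 0.03 to 1.42 (median 0.37). Of these genes 0 were called and 2 had an unadjusted limma p under 0.05. Both had all FL livers above all WT livers (2.77% of all genes): Lbp, a carrier of bacterial lipopolysaccharide, with 2515 to 3542 against 2063 to 2325, and Hamp, the iron hormone hepcidin, with 20346 to 28452 against 17996 to 18431. Of the 8 glucocorticoid-response genes 7 were higher in FL (median 0.42), with 0 called and 0 at an unadjusted limma p under 0.05. Sgk1, named after its values were seen, was counted as higher at 0.06, although its plain means were 504.0 in FL and 551.3 in WT. Without FL replicate 3 and WT replicate 2, 4 of the 8 genes tied to MTF1 had every FL liver above both WT livers. Another 2 had every FL liver below. These counts were 4 and 1 of the 10 IL-6 and STAT3 genes, and 3 and 0 of the 8 glucocorticoid-response genes. Over all genes the shares were 12.7% above and 14.6% below.

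Of 8 genes of the NRF2 response, which answers oxidative and electrophile stress and can also raise metallothioneins, 5 were higher and 3 lower in FL (median 0.06), with 0 called and 3 at an unadjusted limma p under 0.05. Nqo1, a quinone reductase, had 102, 107, 139 and 84 normalised counts in FL, against 168, 267 and 177 in WT (log2 fold change -0.90, limma p = 0.00421 unadjusted, exact permutation p = 0.029). Nfe2l2, which encodes NRF2 itself, ran from 1197 to 1494 in FL and from 1583 to 1713 in WT livers (log2 fold change -0.33). Neither gene overlapped between the genotypes, with FL the lower, as for 1.98% of all genes. The other was Slc7a11, the cystine importer, named after its values were seen, whose genotypes overlapped (209, 435, 488 and 211 in FL, against 483, 660 and 851 in WT). The directions depended on the pair of livers set apart above. Without FL replicate 3 and WT replicate 2, 5 of the 8 NRF2 genes had every FL liver below both WT livers, against 14.6% of all genes. For 0 were they above, against 12.7%. Of 13 copper and manganese genes, 7 were higher and 6 lower (median 0.001), 0 were called and 1 had an unadjusted limma p under 0.05. That gene was Atox1, the cytosolic copper chaperone, with 1167, 1818, 961 and 1257 in FL and 2127, 2595 and 2004 in WT livers (log2 fold change -0.82, limma p = 0.00508 unadjusted, exact permutation p = 0.057). Atp7a, a copper-exporting ATPase, did not overlap either, but at only 18 to 27 normalised counts. Without the same pair of livers, 2 of the 13 genes had every FL liver above both WT livers and 3 had every one below.

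Finally, genes with the most similar profile were listed for each member, as the smallest root-mean-square difference between log2 values centred on their mean over the 7 livers. Mt1 was nearest to Mrap (0.23), Slc17a8 (0.25) and Lonrf3 (0.28), against a spread of its own of 0.74, and Mt2 came only at rank 15 (0.34). Mt2 was nearest to Gm2061 (0.26), Igfbp1 (0.27) and Cyp2d9 (0.29), against 1.03 of its own. Igfbp1, a secreted binder of insulin-like growth factors, had 28205, 35820, 9253 and 37469 normalised counts in FL, against 18842, 3730 and 15750 in WT. Slc30a10 was nearest to Extl1 (0.21), Serpina3m (0.24) and Pmvk (0.25), and genes near to Slc39a14 included Alkbh1 (0.06) and Sdc4 (0.07). Genes near to Mtf1 included Mettl2 and Kdm1a (both 0.05). Slc30a1 was nearest to Cspp1, Zfp219 and Gpat4 (0.04 to 0.05), and Slc39a4 to Fer1l5, Smc3 and Mfsd14b (0.06 to 0.07). Since neighbours were picked for this likeness, their shared highs and lows are no further result.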

How the data were processed

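Stranded mRNA-seq libraries (TruSeq) from 7 livers were sequenced by the authors as paired reads of 36 bases. The submitters' processing notes name bcl2fastq 2.15.0.4, TopHat2 2.0.13, Bowtie2 2.2.6.0, HTSeq 2.2.4.0 and R 3.4.2. They also name featureCounts and DESeq2, without a version. The deposited values are counts that the authors normalised with DESeq2 and rounded to whole numbers, so they are treated here as a score and not as raw counts. Each library held an estimated 11900000 to 19500000 counted reads, judged from the steps between low values. Of 14988 rows, repeats of 120 genes held identical values and were used once, leaving 14851 genes.

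Genes with a mean of at least 10 (12545) were tested on log2(value + 1) with limma 3.58.1 (R 4.3.3, trend on, two-sided, Benjamini-Hochberg 0.05), FL against WT. Fold changes are on that log2 scale. Single values and sums used an exact permutation test over the 35 divisions of the livers. Nothing says that replicate numbers pair the mice, so no block entered. Correlations of same-numbered livers' deviations were 0.44, -0.48 and -0.66. These cannot decide the pairing, because FL replicate 3 and WT replicate 2, which correlated at 0.77 under different numbers, weigh heavily on them. Alternatives changed the pseudocount, filter, scaling, variance trend, block and livers. Transcript lengths and positions came from GENCODE (GRCm38). On simulated data the script was tested as well. Named beyond the set were Trp53, Eda2r, the other family genes at the extremes, up to 4 genes a list that were called or did not overlap, and 3 nearest profiles a gene, some of which are not reported here. The members and lists were chosen with earlier results of these data known.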

Additional observations from a re-analysis of the deposited data

Results flagged for a closer look

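Of 37 results examined for 1 FL liver standing far from the other 3, 3 did so, where chance alone gives about 1 in 20, or 1.85. All were values of FL replicate 3. Slc30a1 was 905 there against 647 to 688 in the other FL livers, the gap being 0.841 of the whole range. Slc39a14 was 6425 against 10470 or more, a gap of 0.899. The ratio of Mt1 to Mt2 was 1.987 against 1.26 to 1.279, a gap of 0.974. The WT group of 3 livers is too small for this rule.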

How the results depend on the processing

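No member was called in any of the 17 alternatives (limma, 0 to 4 members at an unadjusted p under 0.05). Of 145 values of the members and of the metallothionein pair, 133 kept their direction and side of the threshold and 12 changed sign, none of them past the threshold. The pair was judged by the exact permutation test. With livers left out or blocked that test cannot give a p under 0.05, so those values could not change side. Scaling to equal totals gave -0.0608 for Mtf1, -0.0479 for Slc30a1 and -0.0436 for Slc39a4. Leaving out 1 liver at a time, log2 fold changes ran from 0.44 to 1.15 for Mt1, 0.24 to 1.41 for Mt2, -0.23 to 0.23 for Mtf1, -0.0467 to 0.11 for Slc30a1, 0.46 to 1.22 for Slc30a10, -0.0219 to 0.16 for Slc39a4 and 0.07 to 0.64 for Slc39a14. The difference in the log2 ratio of Mt1 to Mt2 ran from -0.25 to 0.20. Without both FL replicate 3 and WT replicate 2, Mtf1 was -0.15, Slc30a1 -0.035 and that ratio difference 0.0368. Over all genes, 2 were called, against 0 with a pseudocount of 5, a mean of at least 50, no trend or the replicate block, 1 after quantile normalisation, 0 to 5 leaving out 1 liver, and 6 without both livers. The cause was not tested. With the replicate block, Mt1 was 0.50, Mt2 0.54, Slc30a10 0.70, Slc39a14 0.34 and the sum of Mt1 and Mt2 0.51, and 110 genes had an unadjusted p under 0.05. With 4 against 3 livers that varied this much, the intervals leave differences of more than 1 log2 unit possible for Mt1, Mt2, Slc30a10 and Slc39a14.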
